A study of Mus musculus with 50 samples.

Results

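Hippocampus of mice labelled S1P2-KO was set against hippocampus of mice labelled S1P3-KO, across all probe sets of an oligonucleotide array. The members are 15 of the 50 arrays in the series, 10 labelled S1P2-KO and 5 labelled S1P3-KO, and they were taken from the sample titles. Mice deficient in S1P2 have sporadic seizures between 4 and 7 weeks of age and mice deficient in S1P3 do not, so the comparison sets a genotype with a seizure history against one without. The mice were 8 weeks old when the tissue was taken, which is after the seizure period. The S1P2-KO group held 5 males and 5 females and the S1P3-KO group 2 males and 3 females. The other groups used here were wild-type hippocampus and wild-type neocortex (10 arrays each) and S1P2-KO and S1P3-KO neocortex (10 and 5 arrays). The titles call the replicates biological, and strain background, the deleted parts of either gene and pooling of animals are not given in the sources used here.

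Sphingosine 1-phosphate, which both receptors bind at the cell surface, is a lipid made from membrane sphingolipids by sphingosine kinases. Both act through heterotrimeric G proteins. S1P3 also signals strongly through phospholipase C, and astrocytes and blood vessels are known sites of its expression. S1P2 is known for its part in vascular tone and in hearing. Hippocampal neurons respond to seizures with waves of transcription, first of immediate early genes and later of neuropeptide and trophic factor genes, and astrocytes around them raise Gfap.

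S1P3-KO replicate 5 stood far from the rest. For the Gapdh and beta-actin controls, 3' probe sets were set against 5' ones as a mean log2 ratio, which degraded or poorly copied RNA raises. This control ratio ran from 0.02 to 1.37 in S1P2-KO and from 0.40 to 0.52 in S1P3-KO replicates 1 to 4. It was 4.46 in S1P3-KO replicate 5, whose log2 signals had a median correlation of 0.85 with the rest of the hippocampus arrays, each of which reached at least 0.926. The ratio did not separate the groups in a two-sided exact permutation test (p = 0.106 with replicate 5 and p = 0.867 without it). Differences between the knockouts in hippocampus are therefore given with replicate 5 and without it, except where they are split by sex or set against neocortex. The tissue label held: Dsp, a desmosomal gene of dentate granule cells, ran from 726 to 1763 over the 25 hippocampus arrays and from 22.0 to 406 in neocortex, and Mef2c, a neocortical transcription factor gene, from 13.4 to 2017 against 4633 to 8471.

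Levels are linear MAS5 signals. Differences are log2 estimates ± SE, S1P2-KO minus S1P3-KO, from 1 limma model of the 25 hippocampus arrays with sex as a covariate, on log2(signal + 30.7), so that a value above 0 means higher in S1P2-KO. Adjusted p-values are limma's after Benjamini-Hochberg over all 8534 probe sets tested, with a threshold of 0.05.

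No probe set passed that threshold, either with all 15 arrays (0 of 8534, 0%) or without S1P3-KO replicate 5 (0%), so differences between the knockouts are described by their values and none of them is a call. At an unadjusted p under 0.05 there were 982 probe sets (11.5%), 492 higher in S1P2-KO (5.77%) and 490 lower (5.74%). Without replicate 5 there were 567 (6.64%), 314 higher (3.68%) and 253 lower (2.96%). Of these, 403 were in both counts, which is 41.0% of the first and 71.1% of the second, and all 403 kept their direction. Since both fits share every array but replicate 5, the kept direction is no separate evidence. The lowest adjusted p was 0.0844 with replicate 5, shared by Crb3 and Lef1, and 0.0710 without it, for Crb3 (limma). Leaving out S1P3-KO replicate 1 gave 4 calls, Lef1, Hif3a and Aopep, which were higher in S1P2-KO, and Vamp4, which was lower. Leaving out S1P2-KO replicate 1 gave 1 call, Crb3. Hif3a, Aopep and Vamp4 were named after their values were seen. Set against wild-type hippocampus, S1P2-KO gave 0 calls (0%) and S1P3-KO 3 (0.0352%), or 2 without replicate 5 (0.0234%). The values against wild type given below share the wild-type arrays between the knockouts.

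**Figure D1:**
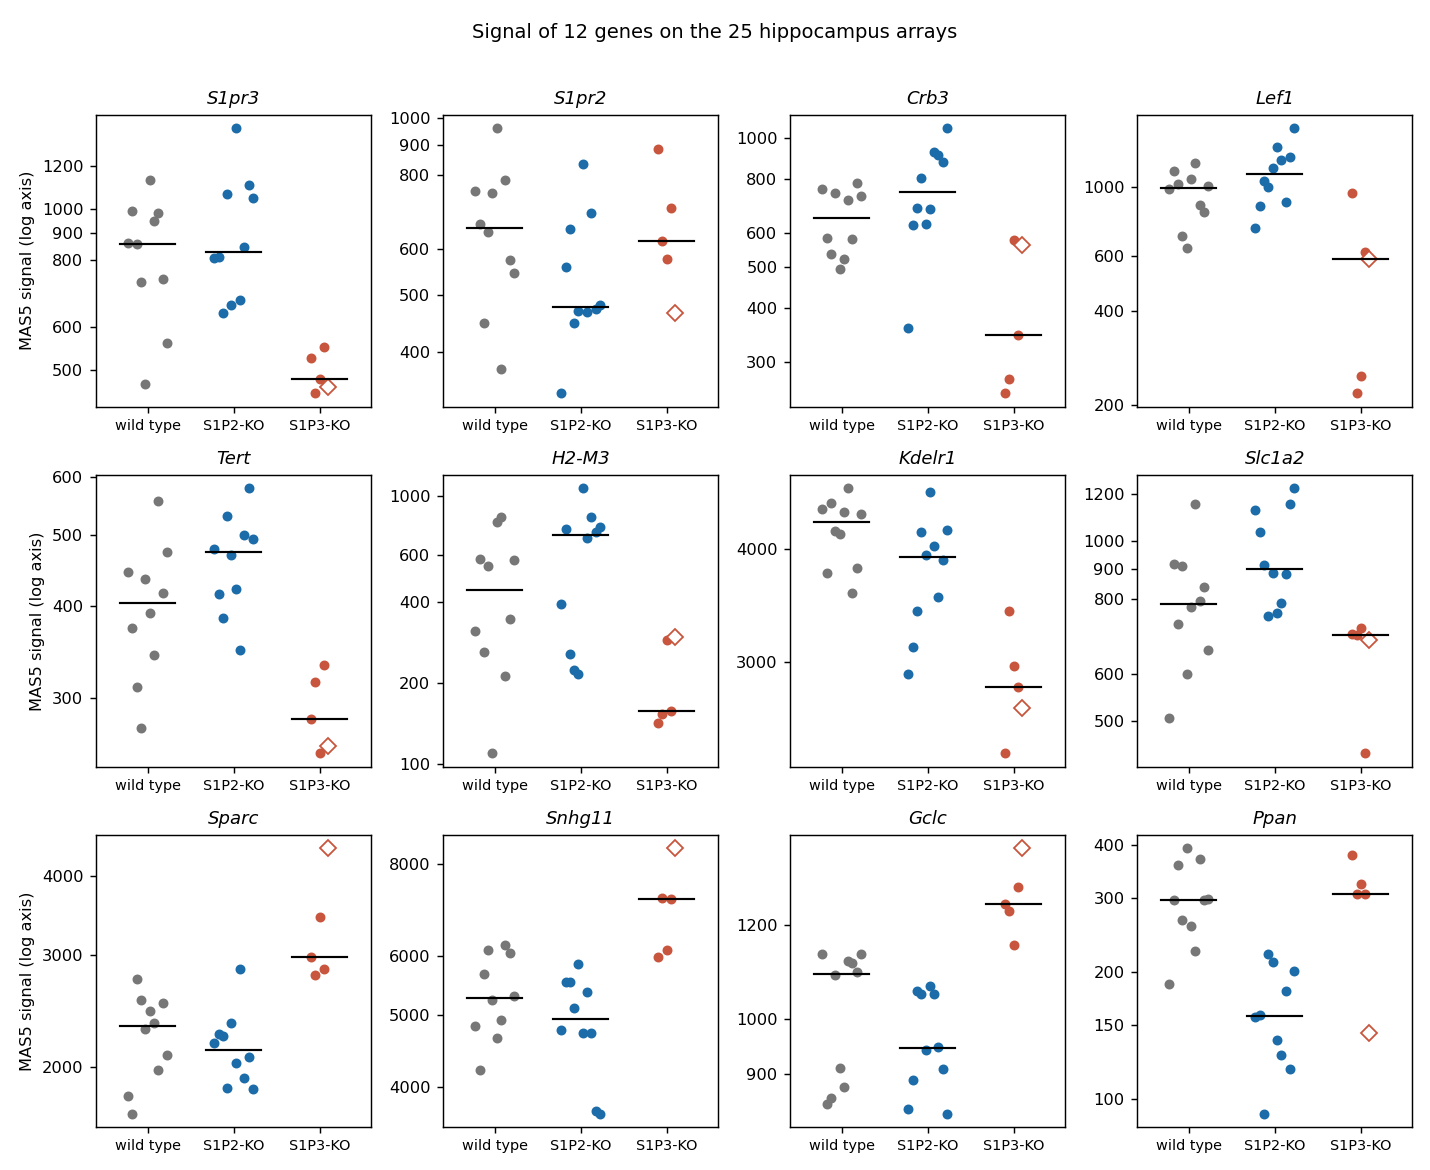
MAS5 signal (log axis) of 12 genes on the 10 wild-type, 10 S1P2-KO and 5 S1P3-KO hippocampus arrays, with a bar at each group's median and an open diamond for S1P3-KO replicate 5. S1pr3, Tert and Slc1a2 lie higher on every S1P2-KO array than on any S1P3-KO array, Snhg11 and Gclc lie lower, and Ppan does so only when the diamond is left aside.

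The targeted genes were read by 1 probe set each. S1pr3, on chromosome 13, was 527, 451, 481, 552 and 464 on S1P3-KO replicates 1 to 5, and 637 at the lowest, 829 at the median and 1414 at the highest of the S1P2-KO arrays. The groups did not overlap, and the wild-type arrays ran from 470 to 1129 with a median of 860. The difference was 0.82 ± 0.18 (limma adjusted p = 0.152) and 0.78 ± 0.19 without replicate 5 (adjusted p = 0.333). S1pr2, on chromosome 9, was 886, 618, 575, 703 and 466 in S1P3-KO and ran from 341 through a median of 478 to 835 in S1P2-KO. These groups overlapped, with 2 of the 10 S1P2-KO arrays below the lowest S1P3-KO array. Its difference was -0.26 ± 0.20 (limma adjusted p = 0.591, 95% interval -0.66 to 0.15), and without replicate 5 it was -0.36 ± 0.21 (adjusted p = 0.795). Without S1P3-KO replicate 1, the highest array, it was -0.13. Whether either probe set lies inside the deleted part of its gene is not known here, so S1pr2 does not bear out the S1P2-KO label and the genotypes rest on the labels.

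The list of receptors and enzymes of the 2 lysophospholipids held 20 genes, of which 11 were on the array and 9 passed the filter on low signals. Besides S1pr3, none of the 9 had an unadjusted p under 0.05, with or without replicate 5. Of the 9, 7 were lower in S1P2-KO and 2 higher, the median difference was -0.09, and over all probe sets it was 0.01. Without replicate 5 the split was 5 lower and 4 higher and the median -0.01. Sphk2, a sphingosine kinase that makes the ligand, was 800, 629, 369, 630 and 657 in S1P3-KO and 301 to 678 in S1P2-KO (median 463), and it differed by -0.32 ± 0.19 (limma adjusted p = 0.498). Its difference was -0.29 ± 0.20 without replicate 5, -0.19 without replicate 1 and -0.49 without replicate 3. Spread was wide for Sgpp1, named after its values were seen, which removes the phosphate from sphingosine 1-phosphate. It ran from 977 to 5516 in S1P2-KO and from 930 to 3659 in S1P3-KO.

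Crb3 and Lef1 led the genes that were higher in S1P2-KO. Crb3, a Crumbs family protein of the apical polarity complex, was 253, 273, 576, 346 and 561 in S1P3-KO and 359 to 1053 in S1P2-KO (median 746). Of the 10 S1P2-KO arrays 9 lay above every S1P3-KO array, and replicate 1, the lowest, did not. The difference was 0.93 ± 0.17 (limma adjusted p = 0.0844) and 1.02 ± 0.18 without replicate 5 (adjusted p = 0.0710). Against wild type, with 495 to 784, Crb3 differed by 0.19 in S1P2-KO and -0.74 in S1P3-KO. Lef1, a transcription factor of Wnt signalling that marks thalamic neurons, was 960, 217, 246, 617 and 589 in S1P3-KO and 738 to 1546 in S1P2-KO (median 1099). Only S1P3-KO replicate 1 reached into the S1P2-KO range. Lef1 differed by 1.21 ± 0.23 (limma adjusted p = 0.0844), by 1.28 ± 0.25 without replicate 5 (adjusted p = 0.107), and by 1.54 without S1P3-KO replicate 1 (adjusted p = 0.000628). Of the 11 tested markers of thalamus and midbrain, Lef1 among them, 9 lay higher in S1P2-KO, as given below, and their part in the Lef1 difference was not tested.

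Tert, the catalytic subunit of telomerase, was 280, 315, 252, 333 and 258 in S1P3-KO and 349 to 579 in S1P2-KO (median 474), so the groups did not overlap. It differed by 0.63 ± 0.14, and by 0.59 ± 0.16 without replicate 5. H2-M3, a class I histocompatibility molecule that presents formylated peptides, had the largest difference among these leading genes, 1.35 ± 0.33 (1.40 ± 0.36 without replicate 5). Its S1P3-KO signals were 142, 153, 289, 157 and 296, and its S1P2-KO signals ran from 216 to 1068, with 7 of 10 above every S1P3-KO array. Gmip, a GTPase-activating protein, was 105, 139, 175, 127 and 140 in S1P3-KO and 172 to 344 in S1P2-KO, a difference of 0.80 ± 0.20 (0.79 ± 0.22 without replicate 5). Mok, a protein kinase, was 187, 261, 245, 206 and 240 in S1P3-KO and 250 to 540 in S1P2-KO, a difference of 0.73 ± 0.19 and of 0.76 ± 0.21 without replicate 5. The limma adjusted p of these 4 genes lay between 0.152 and 0.168 with replicate 5, and it was 0.368 for each without it.

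Kdelr1, which retrieves escaped proteins into the endoplasmic reticulum, was 2378, 3415, 2972, 2819 and 2671 in S1P3-KO and 2913 to 4624 in S1P2-KO (median 3916), and it differed by 0.41 ± 0.10 (limma adjusted p = 0.152) and by 0.38 ± 0.10 without replicate 5 (adjusted p = 0.368). The wild-type arrays ran from 3574 to 4670, so that the S1P2-KO group lay between the other groups in its mean: Kdelr1 differed from wild type by -0.15 in S1P2-KO and by -0.56 in S1P3-KO (limma adjusted p of the latter 0.0273, and 0.0578 without replicate 5). Stk40, a kinase-like protein, differed by 0.47 ± 0.10 (0.38 ± 0.10 without replicate 5), with 8 of 10 S1P2-KO arrays above every S1P3-KO array. Wbp1, which binds WW domains, was 2438, 3218, 3547, 3855 and 1460 in S1P3-KO and 3844 to 4872 in S1P2-KO. Its difference of 0.61 ± 0.15 was 0.37 ± 0.10 without replicate 5, its lowest array. Lrwd1, a protein of replication origins, differed by 0.49 ± 0.12 (0.41 ± 0.12 without replicate 5). Phc2, a Polycomb group protein, differed by 0.76 ± 0.22 (0.86 ± 0.23 without replicate 5), and its lowest S1P3-KO signal, 126 on replicate 1, stood far below the other 4 (487 to 773). Without replicate 1 it differed by 0.36. Spats2 differed by 0.24 ± 0.11 with replicate 5 and by 0.37 ± 0.09 without it, and by 0.14 without S1P3-KO replicate 2.

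Sparc had the smallest p among genes that were lower in S1P2-KO. This matrix protein, secreted by vessel cells and glia, was 2983, 2785, 3450, 2848 and 4418 in S1P3-KO and 1845 to 2848 in S1P2-KO (median 2128), with 9 of 10 S1P2-KO arrays below every S1P3-KO array. It differed by -0.59 ± 0.12 (limma adjusted p = 0.152) and by -0.48 ± 0.12 without replicate 5 (adjusted p = 0.333). Against wild type, which ran from 1688 to 2748, Sparc differed by -0.05 in S1P2-KO and 0.54 in S1P3-KO. Snhg11, a long noncoding RNA that hosts small nucleolar RNAs, was 5987, 7200, 6128, 7166 and 8389 in S1P3-KO and 3689 to 5869 in S1P2-KO (median 4944). Here the groups did not overlap, and the difference was -0.51 ± 0.11 and -0.44 ± 0.11 without replicate 5. Gclc, the catalytic subunit of the enzyme that limits glutathione synthesis, was 1247, 1232, 1154, 1289 and 1389 in S1P3-KO and 835 to 1066 in S1P2-KO (median 947), again without overlap. It differed by -0.38 ± 0.10 (limma adjusted p = 0.157) and by -0.35 ± 0.10 without replicate 5 (adjusted p = 0.436).

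Another 7 genes were among the 10 of smallest p on this side. Vdac2, a channel of the outer mitochondrial membrane, was 1756, 2736, 2144, 1797 and 2602 in S1P3-KO and 1147 to 1801 in S1P2-KO, a difference of -0.58 ± 0.14 (-0.51 ± 0.14 without replicate 5). Ndrg1, a stress-responsive gene needed by myelinating cells, differed by -0.36 ± 0.09 (-0.32 ± 0.09 without replicate 5), with 9 of 10 S1P2-KO arrays below the lowest S1P3-KO array of 4471. Its dimmer probe set differed by -0.26 ± 0.13 (-0.24 without replicate 5). Maip1, a mitochondrial matrix protein, was 520, 486, 490, 395 and 450 in S1P3-KO and 173 to 440 in S1P2-KO, a difference of -0.65 ± 0.16 (-0.66 ± 0.18 without replicate 5). Mapre2, which binds growing microtubule ends, differed by -0.49 ± 0.12 and Ddx5, an RNA helicase, by -0.41 ± 0.10, which were -0.42 ± 0.12 and -0.39 ± 0.10 without replicate 5. Psmc1, an ATPase of the proteasome, differed by -0.30 ± 0.08 (-0.27 ± 0.08 without replicate 5). Cox7b, a subunit of cytochrome c oxidase, was 5205, 5285, 5315, 4594 and 9161 in S1P3-KO and 3058 to 4900 in S1P2-KO. Its difference of -0.53 ± 0.14 was -0.35 ± 0.11 without replicate 5, the array that stood far above the rest.

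Ppan, a ribosome biogenesis factor, had the smallest p on the lower side once replicate 5 was left out. It was 379, 306, 324, 307 and 144 in S1P3-KO and 92.5 to 221 in S1P2-KO (median 157), so that replicates 1 to 4 lay above every S1P2-KO array and replicate 5 lay inside the S1P2-KO range. Ppan differed by -0.75 ± 0.21 with replicate 5 (limma adjusted p = 0.222) and by -0.94 ± 0.20 without it (adjusted p = 0.188). Its S1P2-KO arrays differed from wild type by -0.78 and its S1P3-KO arrays by -0.03. Ppan lies 3 genes from S1pr2 on chromosome 9. Among the 40 genes on either side of S1pr2, 17 were tested, 11 were higher and 6 lower, with a median of 0.06, and without replicate 5 they were 9 and 8, with a median of 0.01. At an unadjusted p under 0.05 (limma) 3 of the 17 were higher and 2 lower, and 1 and 2 without replicate 5. The shares of all probe sets were 5.77% and 5.74%, and 3.68% and 2.96% without it. Tmem205 differed by 0.24 ± 0.09 (0.16 ± 0.09 without replicate 5). Tyk2, 8 genes away and named after its values were seen, differed by 0.71 (0.74). The nearest tested neighbours, Dnmt1 and Mrpl4, differed by 0.06 and 0.54, and by 0.01 each without replicate 5. Of 32 tested neighbours of S1pr3, 20 were lower and 12 higher, with a median of -0.06, and 18 and 14 without replicate 5, with a median of -0.01. None had an unadjusted p under 0.05 in either case.

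A further 4 genes were among the 10 of smallest p on the lower side only when replicate 5 was left out. Ppp3cb, a catalytic subunit of the phosphatase calcineurin, was 2052, 2439, 2022, 2170 and 1580 in S1P3-KO and 1272 to 1931 in S1P2-KO, a difference of -0.44 ± 0.12 without replicate 5 and -0.35 ± 0.12 with it. Guk1, a guanylate kinase, was 4343, 3825, 3727 and 4158 on replicates 1 to 4 and 1977 on replicate 5, against 2584 to 3614 in S1P2-KO. It differed by -0.31 ± 0.08 without replicate 5 and by -0.11 ± 0.13 with it. Lmo1, a LIM domain protein, differed by -0.40 ± 0.10 and -0.15 ± 0.16 in the same order, and 9530068E07Rik by -0.38 ± 0.09 and -0.29 ± 0.09. The limma adjusted p of these 4 genes lay between 0.299 and 0.368 without replicate 5.

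Groups that did not overlap were rare. Over the 15 arrays they were separate for 16 of 8534 probe sets (0.187%), 7 higher in S1P2-KO (0.082%) and 9 lower (0.105%), and without replicate 5 for 34 (0.398%), 16 higher (0.187%) and 18 lower (0.211%). Of the 16, S1pr3, Tert, Snhg11 and Gclc are described above. Some others of the 16 were named after their values were seen. Slc1a2, the glutamate transporter of astrocytes, was 700, 697, 717, 442 and 683 in S1P3-KO and 750 to 1227 in S1P2-KO, and it differed by 0.54 ± 0.16 (limma adjusted p = 0.234) and by 0.56 ± 0.17 without replicate 5 (adjusted p = 0.527). Ptk7, a receptor-like protein of planar cell polarity, differed by 1.36 (1.32 without replicate 5), and Dedd, a death effector domain protein, by 0.82 (0.84). Nfkbia, the inhibitor of the transcription factor NF-kappa-B, differed by -0.60 (-0.58) on the probe set without overlap and by -0.42 (-0.42) on its other one.

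The list of glucocorticoid response genes and metallothioneins, which also holds the receptor gene Nr3c1, leaned lower in S1P2-KO than in S1P3-KO. Of 24 tested members 20 were lower and 4 higher, where 49% of all probe sets were lower, and the median difference was -0.20 against 0.01 over all probe sets. The lean did not rest on replicate 5, since 22 of 24 were lower without it (51.8% of all probe sets), with a median of -0.17. At an unadjusted p under 0.05, 5 members were lower and 0 higher, and 7 and 0 without replicate 5, where the share of all probe sets was 5.74% and 2.96%. The hormone-induced kinase Sgk1 was 4555, 5725, 6759, 3612 and 5943 in S1P3-KO and 1696 to 4599 in S1P2-KO (median 3230), with 5 of 10 S1P2-KO arrays below every S1P3-KO array. It differed by -0.78 ± 0.25 (limma adjusted p = 0.252) and by -0.73 ± 0.26 without replicate 5 (adjusted p = 0.607). Wild type lay between the knockouts, at 2322 to 6690 with a median of 4147, and Sgk1 differed from it by -0.35 in S1P2-KO and 0.43 in S1P3-KO. Over the list, the median difference from wild type was 0.06 in S1P2-KO and 0.27 in S1P3-KO (0.23 without replicate 5).

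Bcl6, a transcriptional repressor, was 1950, 2303, 1701, 1951 and 2246 in S1P3-KO and 1252 to 1995 in S1P2-KO, and it differed by -0.32 ± 0.11 (limma adjusted p = 0.309) and by -0.29 ± 0.12 without replicate 5 (adjusted p = 0.693). A further 6 members with an unadjusted p under 0.05 with or without replicate 5 were named after their values were seen. The kinase gene Map3k6 differed by -0.95 ± 0.39 (-0.93 without replicate 5), and the leucine zipper gene Tsc22d1 by -0.30 ± 0.11 (-0.23). Errfi1, an inhibitor of the epidermal growth factor receptor, differed by -0.30 with replicate 5 and by -0.18 without it. Ddit4, an inhibitor of growth signalling, differed by -0.30 with replicate 5 and by -0.34 without it, and the cell cycle inhibitor Cdkn1a by -0.44 and -0.65. The clock gene Per1 went from 0.19 with replicate 5, where it was 155, to -0.43 without it. The metallothioneins Mt1 and Mt2 differed by -0.16 and -0.18 with replicate 5 and by -0.03 and -0.06 without it. Nr3c1, the glucocorticoid receptor itself, was the member highest in S1P2-KO, at 0.68 ± 0.33, and 0.31 without replicate 5, where its signal was 10.3. These 3 genes too were named after their values were seen. In neocortex 18 of the 24 members were lower, with a median of -0.13. Beside these values stood the summed signal of the list's 26 genes, 106688 to 146621 in S1P2-KO and 122204 to 177962 in S1P3-KO, or at most 143738 without replicate 5. In wild type it ran from 91744 to 122822.

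**Figure D2:**
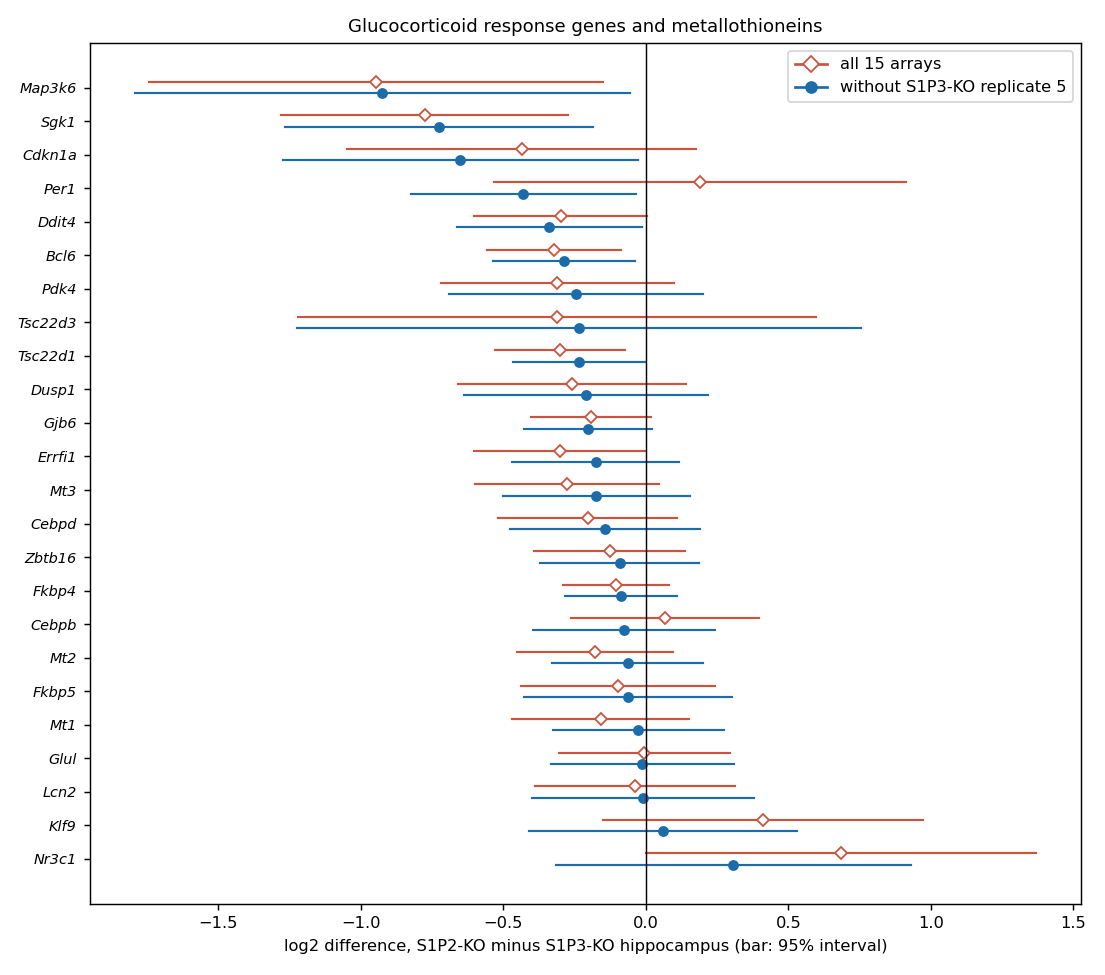
Log2 difference, S1P2-KO minus S1P3-KO hippocampus, of the 24 tested members of the glucocorticoid response and metallothionein list, Nr3c1 among them, with 95% limma intervals, from all 15 arrays (diamonds) and without S1P3-KO replicate 5 (circles). In the first set 20 of the 24 points lie left of 0 and in the second 22, and Per1 crosses from 0.19 to -0.43.

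Promoter sequence of the genes in this list was searched for the site that the glucocorticoid receptor binds. The 250 bases before each annotated start were taken from RefSeq (GRCm38.p6), where 21 of the 24 members had 36 windows. The full palindrome, AGAACA and TGTTCT with 3 bases between them, reads the same on both strands. It was in 1 of the 36, a window of Sgk1, and in 3 of all 32851 promoter windows (0.00913%). The single hexamer TGTTCT, searched on both strands and so also as AGAACA, overlaps the palindrome. It was in 6 of the 36 windows, of 4 genes, and in 16.1% of all windows. Shown are the Sgk1 window with the palindrome, since Sgk1 had the smallest p of the list with replicate 5, and the windows of Bcl6 and Tsc22d1, which also had an unadjusted p under 0.05 and hold the hexamer. Capitals mark the palindrome and the hexamers. The windows are chr10:21993640-21993889 (plus strand) for Sgk1, chr16:23981284-23981533 (minus strand) for Bcl6 and chr14:76503976-76504225 (plus strand) for Tsc22d1. In Sgk1 the palindrome begins 189 bases before the start. A match describes the letters only.
Sgk1: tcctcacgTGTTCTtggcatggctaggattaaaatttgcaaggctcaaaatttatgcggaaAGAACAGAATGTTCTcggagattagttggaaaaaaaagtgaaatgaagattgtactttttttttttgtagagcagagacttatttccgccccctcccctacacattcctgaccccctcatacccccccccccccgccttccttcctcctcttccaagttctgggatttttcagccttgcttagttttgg
Bcl6: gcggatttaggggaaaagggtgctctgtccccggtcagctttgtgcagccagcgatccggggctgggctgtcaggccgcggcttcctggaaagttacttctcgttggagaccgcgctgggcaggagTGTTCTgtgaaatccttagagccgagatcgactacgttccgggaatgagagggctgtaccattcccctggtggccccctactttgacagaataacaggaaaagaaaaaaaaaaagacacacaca
Tsc22d1: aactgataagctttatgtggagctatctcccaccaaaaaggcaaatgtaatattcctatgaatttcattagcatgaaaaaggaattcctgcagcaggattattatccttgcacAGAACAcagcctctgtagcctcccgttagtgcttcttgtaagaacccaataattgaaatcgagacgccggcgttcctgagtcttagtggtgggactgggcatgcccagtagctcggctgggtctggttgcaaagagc

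Genes of synapses and channels had high list medians that depended on replicate 5. Synaptic vesicle and SNARE genes had a median of 0.33, with 15 of 21 higher in S1P2-KO, and without replicate 5 the median was -0.03 with 9 of 21 higher. Of all probe sets 51% were higher with replicate 5 and 48.2% without it. Voltage-gated channel genes went from 0.24, with 22 of 28 higher, to 0.00, with 14 of 28. On replicate 5 itself the median member lay 1.39 log2 units below the mean of the other S1P3-KO arrays for vesicle genes (-1.39), 1.09 below for channels (-1.09) and 0.50 below for glutamate receptors (-0.50), where the median over all probe sets was 0.04. For 14 of the 21 vesicle genes and 17 of the 28 channel genes replicate 5 held the lowest S1P3-KO signal. Nsf, the ATPase that takes SNARE complexes apart, was 15112, 14007, 16992 and 11357 on replicates 1 to 4 and 4343 on replicate 5, against 14337 to 18469 in S1P2-KO. It differed by 0.49 ± 0.18 with replicate 5 and by 0.16 ± 0.09 without it. Rab3a, a GTPase of vesicles, did not follow this pattern, with 329, 416, 191, 268 and 585 in S1P3-KO and 260 to 868 in S1P2-KO, a difference of 0.81 ± 0.33 and of 0.97 ± 0.34 without replicate 5.

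**Figure D3:**
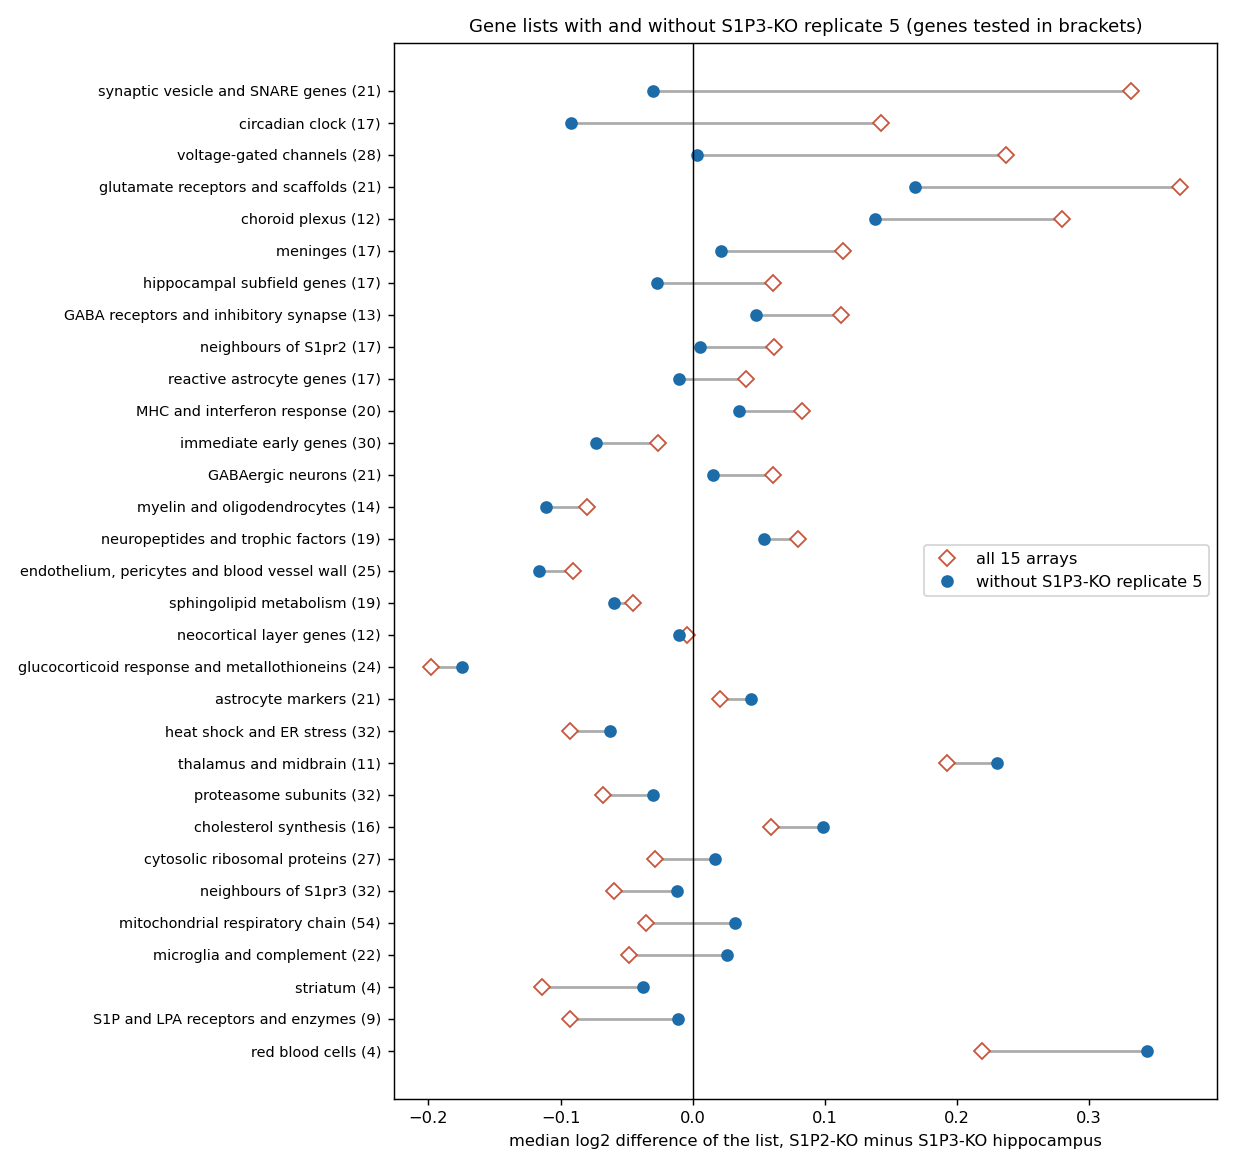
Median log2 difference, S1P2-KO minus S1P3-KO hippocampus, of the gene lists shown, from all 15 arrays (diamonds) and without S1P3-KO replicate 5 (circles), ordered from the largest downward to the largest upward shift. Synaptic vesicle genes move from 0.33 to -0.03 and circadian clock genes from 0.14 to -0.09, while glucocorticoid response genes stay at -0.20 and -0.17 and thalamus genes at 0.19 and 0.23.

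Among channel genes Hcn2, a pacemaker channel, and Scn1a, a sodium channel mutated in inherited epilepsies, had the smallest p and opposite signs. Hcn2 was 1858, 3616, 2607, 2483 and 1355 in S1P3-KO and 2197 to 4957 in S1P2-KO (median 4424), with 9 of 10 S1P2-KO arrays above every S1P3-KO array. It differed by 0.87 ± 0.22 (limma adjusted p = 0.161) and by 0.69 ± 0.22 without replicate 5 (adjusted p = 0.533). Scn1a was 2250, 2897, 2114, 2290 and 2649 in S1P3-KO and 1298 to 2428 in S1P2-KO (median 1833), a difference of -0.40 ± 0.12 and -0.37 ± 0.13 without replicate 5. It differed from wild type (1961 to 2650) by -0.34 in S1P2-KO and 0.07 in S1P3-KO. Glutamate receptor and scaffold genes kept a median above 0, at 0.37 with 17 of 21 higher and at 0.17 with 14 of 21 higher without replicate 5. Camk2a, a kinase of the postsynaptic density, spread from 154 to 1235 in S1P2-KO and from 57.3 to 874 in S1P3-KO, and differed by 1.78 ± 0.62 (1.49 ± 0.65 without replicate 5). Its dimmer probe set differed by 1.06 ± 0.73 (0.52 without replicate 5). Gria2, an AMPA receptor subunit, differed by 0.24 ± 0.11 (0.21 ± 0.12 without replicate 5). For GABA receptors and the inhibitory synapse 7 of 13 genes were higher, with and without replicate 5, with medians of 0.11 and 0.05, and Gabrb2, a GABA receptor subunit, differed by 1.03 ± 0.38 (0.97 ± 0.42 without replicate 5). Genes of GABAergic neurons were higher for 12 of 21 members in either case, with medians of 0.06 and 0.02. Among them Pvalb, the calcium-binding protein of fast-spiking interneurons, was 4090, 4125, 4515 and 4365 on S1P3-KO replicates 1 to 4, below every S1P2-KO array (4749 to 7204), and 6178 on replicate 5. It differed by 0.28 ± 0.11 with replicate 5 and by 0.37 ± 0.11 without it.

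Astrocyte genes did not lean to either side as a list, with 11 of 21 higher and a median of 0.02, and 13 of 21 and 0.04 without replicate 5. Gfap, the intermediate filament that reactive astrocytes raise, was 4758, 4098, 2994, 4707 and 7108 in S1P3-KO and 2806 to 3850 in S1P2-KO (median 3070), while wild type ran from 2100 to 3263. Gfap differed from wild type by 0.33 in S1P2-KO, with overlapping ranges (limma adjusted p = 0.809). In S1P3-KO it was higher than wild type by 0.84 (limma adjusted p = 0.0273, and 0.0578 without replicate 5). The knockouts differed by -0.51 ± 0.14 (limma adjusted p = 0.234). Without replicate 5, the highest array, they differed by -0.35 ± 0.13 (adjusted p = 0.607). Its dimmer probe set gave -0.28 ± 0.12 and -0.33. Slc1a2 lay the other way, as given above. The reactive astrocyte list, which shares Gfap and also holds S1pr3, had 9 of 17 members higher and a median of 0.04, and 8 of 17 and -0.01 without replicate 5. In whole tissue, fewer cells of a type and less RNA per cell cannot be told apart.

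Microglia and complement genes were split, with 12 of 22 lower and a median of -0.05, and 10 of 22 lower and 0.03 without replicate 5. Their summed signal ran from 67408 to 73747 in S1P2-KO and from 58815 to 70186 in S1P3-KO. C1qc, a chain of the complement protein C1q, was 3233, 3180, 3073 and 2658 on replicates 1 to 4 and 944 on replicate 5, against 2927 to 4204 in S1P2-KO, and its difference of 0.50 ± 0.19 was 0.18 ± 0.12 without that array. Aif1, a calcium-binding protein of microglia, was dim in all groups, at 54.3 to 171 in S1P2-KO and 68.7 to 279 in S1P3-KO, a difference of -0.67 ± 0.30 (-0.59 ± 0.33 without replicate 5). Vessel genes lay lower for 18 of 25 members (17 of 25 without replicate 5), with medians of -0.09 and -0.12. Sparc led them, and Cdh5, the endothelial cadherin, was 318, 234, 313, 255 and 386 in S1P3-KO and 153 to 304 in S1P2-KO, a difference of -0.43 ± 0.22 (-0.31 ± 0.23 without replicate 5). The other 7 members (8 without replicate 5) lay higher. Among them the endothelial marker Cldn5, named after its values were seen, differed by 0.43 ± 0.24 (0.17 without replicate 5). The summed signal of the vessel genes was 22295 to 27896 in S1P2-KO and 25792 to 27376 in S1P3-KO, and its part in the Sparc difference was not tested. Myelin and oligodendrocyte genes were lower for 8 of 14 members (11 of 14 without replicate 5), with no member at an unadjusted p under 0.05, and medians of -0.08 and -0.11. Pdgfra, the receptor that marks oligodendrocyte precursors, differed by -0.30 ± 0.16 (-0.25 ± 0.17 without replicate 5).

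Markers of tissue beside the hippocampus were compared to see what the dissections held. Thalamus and midbrain genes were higher in S1P2-KO for 9 of 11 members with replicate 5 and 8 of 11 without it, with medians of 0.19 and 0.23. Their summed signal ran from 9658 to 11675 in S1P2-KO, from 8850 to 10545 in S1P3-KO and from 9349 to 11467 in wild type, and every member had a signal above 30.7 on some array. Besides Lef1, Prkcd, a protein kinase C abundant in thalamus, was 1524, 1175, 1662, 1243 and 986 in S1P3-KO and 1387 to 2316 in S1P2-KO, and it differed by 0.45 ± 0.13 (limma adjusted p = 0.234) and 0.35 ± 0.13 without replicate 5. Zic1, a transcription factor gene of medial thalamus, septum and meninges that was chosen after its values were seen, differed by 0.64 (0.65 without replicate 5). Choroid plexus genes were higher for 11 of 12 members (9 of 12), with medians of 0.28 and 0.14. In neocortex all 12 members were higher, with a median of 0.17. Arrays within each hippocampus group varied widely. The summed signal of the list there ran from 6592 to 48504 in S1P2-KO (median 22501) and from 7066 to 45036 in S1P3-KO (median 10516). In wild-type hippocampus it ran from 7221 to 56265 (median 12419). Folr1, the folate receptor of choroid plexus, was 943, 60.1, 2097, 66.1 and 104 in S1P3-KO and 181 to 1799 in S1P2-KO, a difference of 0.97 ± 0.68 (0.80 ± 0.73 without replicate 5). With another S1P3-KO array left out it was 0.28 (replicate 2) or 1.795 (replicate 3). Meningeal genes were higher for 12 of 17 (10 of 17), neocortical layer genes for 6 of 12 (6 of 12) and hippocampal subfield genes for 9 of 17 (8 of 17), with medians between -0.03 and 0.11. The 4 striatal genes divided evenly.

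Spock1, a proteoglycan of neurons, differed most within the hippocampal list. It was not brightest in hippocampus, since its mean was 2131 in S1P2-KO and 3798 in S1P3-KO hippocampus against 3059 and 4543 in neocortex. In neocortex the knockouts differed by -0.56 ± 0.20. In hippocampus Spock1 was 2389, 4666, 4282, 3168 and 4485 in S1P3-KO and 1781 to 2705 in S1P2-KO (median 2036), with 8 of 10 S1P2-KO arrays below every S1P3-KO array. Wild type ran from 852 to 2944. The difference was -0.76 ± 0.23 (limma adjusted p = 0.234) and -0.73 ± 0.25 without replicate 5 (adjusted p = 0.584), while against wild type S1P2-KO differed by 0.17 and S1P3-KO by 0.93. Crym, a thyroid hormone binding protein of subfields CA1 and subiculum, differed by -0.21 ± 0.10, by -0.15 ± 0.10 without replicate 5 and by -0.34 without replicate 1. Fezf2, a transcription factor gene of deep neocortical layers, differed by -0.31 ± 0.10 (-0.24 ± 0.10 without replicate 5).

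Genes tied to neuronal activity had median differences near 0 in hippocampus between the genotype with a seizure history and the one without. Of 30 tested immediate early genes 14 were higher and 16 lower in S1P2-KO, with a median of -0.03, and without replicate 5 the count was 9 higher and 21 lower with a median of -0.07. Of all probe sets 49% were lower with replicate 5 and 51.8% without it. In neocortex 22 of the 30 were lower, with a median of -0.14. In hippocampus the list lay below wild type in both knockouts, by a median of -0.18 in S1P2-KO and -0.23 in S1P3-KO. Jund, an AP-1 transcription factor gene, was 13547, 14702, 16427, 14773 and 10027 in S1P3-KO and 14564 to 25088 in S1P2-KO, and it differed by 0.51 ± 0.13 (limma adjusted p = 0.155) and by 0.40 ± 0.12 without replicate 5 (adjusted p = 0.515). Dusp6, a phosphatase that restrains growth factor signalling, was 2062, 1983, 1726, 1994 and 3010 in S1P3-KO and 1124 to 1947 in S1P2-KO, a difference of -0.43 ± 0.13 (-0.33 ± 0.13 without replicate 5). Neuropeptide and trophic factor genes were higher for 12 of 19 members (11 of 19 without replicate 5), with medians of 0.08 and 0.05. Penk, the enkephalin precursor, differed by -0.32 ± 0.15 with replicate 5, where it was highest at 4062, and by -0.17 ± 0.14 without it. Trh, the precursor of thyrotropin-releasing hormone, differed by 1.29 ± 0.47 (1.33 ± 0.51 without replicate 5), with S1P3-KO signals of 427, 19.4, 78.5, 195 and 174. Npy and Bdnf, chosen for their known response to seizures, differed by -0.05 and 0.08 with replicate 5 and by 0.05 and 0.06 without it. Clock genes went from a median of 0.14 to -0.09 without replicate 5, where Nr1d1, a repressor of the clock, stood at 2526 against 461 to 703 on the other S1P3-KO arrays. Its difference was -0.57 ± 0.27 with replicate 5 and -0.14 ± 0.18 without it.

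Metabolic and stress lists had medians within 0.10 of 0. Cholesterol synthesis genes were higher for 10 of 16 members (11 of 16 without replicate 5), with medians of 0.06 and 0.10, and both knockouts lay below wild type, by medians of -0.17 and -0.16. Fdft1, the squalene synthase, was 1581, 2161, 2279, 2515 and 2064 in S1P3-KO, 2117 to 3166 in S1P2-KO and 2459 to 3407 in wild type, a difference between the knockouts of 0.29 ± 0.11 (limma adjusted p = 0.313) and of 0.28 ± 0.11 without replicate 5. Nsdhl, a sterol dehydrogenase, differed by 0.65 with replicate 5, which held 206, and by 0.24 without it. Sphingolipid genes were lower for 10 of 19 members (12 of 19). Psap, the precursor of the saposins that help degrade sphingolipids, was 8360, 10036, 6480, 8630 and 5481 in S1P3-KO and 8950 to 20228 in S1P2-KO, and it differed by 0.70 ± 0.20 (limma adjusted p = 0.228) and 0.59 ± 0.20 without replicate 5. Neu1, a lysosomal sialidase, differed by 0.40 ± 0.12 (0.34 ± 0.13 without replicate 5). Heat shock and endoplasmic reticulum stress genes were lower for 20 of 32 members (22 of 32), with medians of -0.09 and -0.06. Hspa8, the constitutive chaperone, was 12267, 15053, 14367, 14653 and 18199 in S1P3-KO and 7104 to 13757 in S1P2-KO, a difference of -0.41 ± 0.12 (-0.32 ± 0.12 without replicate 5).

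Housekeeping complexes showed the mark of replicate 5 again. Proteasome subunits were lower in S1P2-KO for 25 of 32 genes with it and 18 of 32 without it, and replicate 5 held the highest S1P3-KO signal of 23 of the 32. Respiratory chain genes lay lower for 32 of 54 and 24 of 54, with replicate 5 highest for 35 of the 54, and cytosolic ribosomal protein genes for 17 of 27 and 11 of 27, with replicate 5 highest for 15. On replicate 5 the median member lay 0.45, 0.50 and 0.32 above the other S1P3-KO arrays for proteasome, respiratory chain and ribosomal genes. The 3' to 5' ratio was also highest on this array, and its part in these lists was not tested. Without replicate 5, 4 respiratory chain genes were higher and 3 lower at an unadjusted p under 0.05, and 0 and 2 proteasome genes. Of all probe sets 3.68% were higher and 2.96% lower at that p, so these few genes are not a result about either complex. Cox6c of cytochrome c oxidase differed by -0.26 ± 0.08 with replicate 5 and -0.16 ± 0.06 without it, and Psma4 of the proteasome by -0.27 ± 0.08 and -0.19 ± 0.07. Ndufv3, a complex I subunit named after its values were seen, differed by 0.26 and 0.39. Class I histocompatibility and interferon genes were higher for 12 of 20 members (13 of 20) with no member at an unadjusted p under 0.05. H2-M3, described above, is not on that list. All 4 tested red blood cell genes were higher, with summed signals of 4886 to 22686 in S1P2-KO and 8077 to 16091 in S1P3-KO.

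The same genotype comparison in neocortex was used to ask whether any difference belonged to the hippocampus. Neocortex gave 0 calls of 8534 (0%) and 388 probe sets at an unadjusted p under 0.05 (4.55%). The test of the difference between tissues gave 0 calls with replicate 5 (0%) and without it (0%), with 360 (4.22%) and 207 (2.43%) at an unadjusted p under 0.05, so no gene was shown to differ between tissues. Of the 10 genes of smallest p on the higher side, 9 were also higher in neocortex, and of the 10 on the lower side 9 were lower, where 60.1% of all probe sets had the same direction in both tissues. Whether the tissues came from the same animals is not given. The correlation that limma estimated between same-numbered arrays of both tissues was 0.127. The counts of shared direction therefore do not come from samples known to be independent. S1pr3 differed by 0.49 ± 0.18 in neocortex and 0.82 ± 0.18 in hippocampus. Ppan had the largest neocortical difference of the leading genes, -0.88 ± 0.23. Gclc was the leading gene that lay lower in hippocampus and higher in neocortex, at -0.38 ± 0.10 and 0.14 ± 0.09, a difference between tissues of -0.52 (limma adjusted p = 0.954). Stk40 lay higher in hippocampus and at -0.05 ± 0.11 in neocortex, and Crb3 was 0.93 ± 0.17 and 0.21 ± 0.21. These genes were chosen on their hippocampal values.

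**Figure D4:**
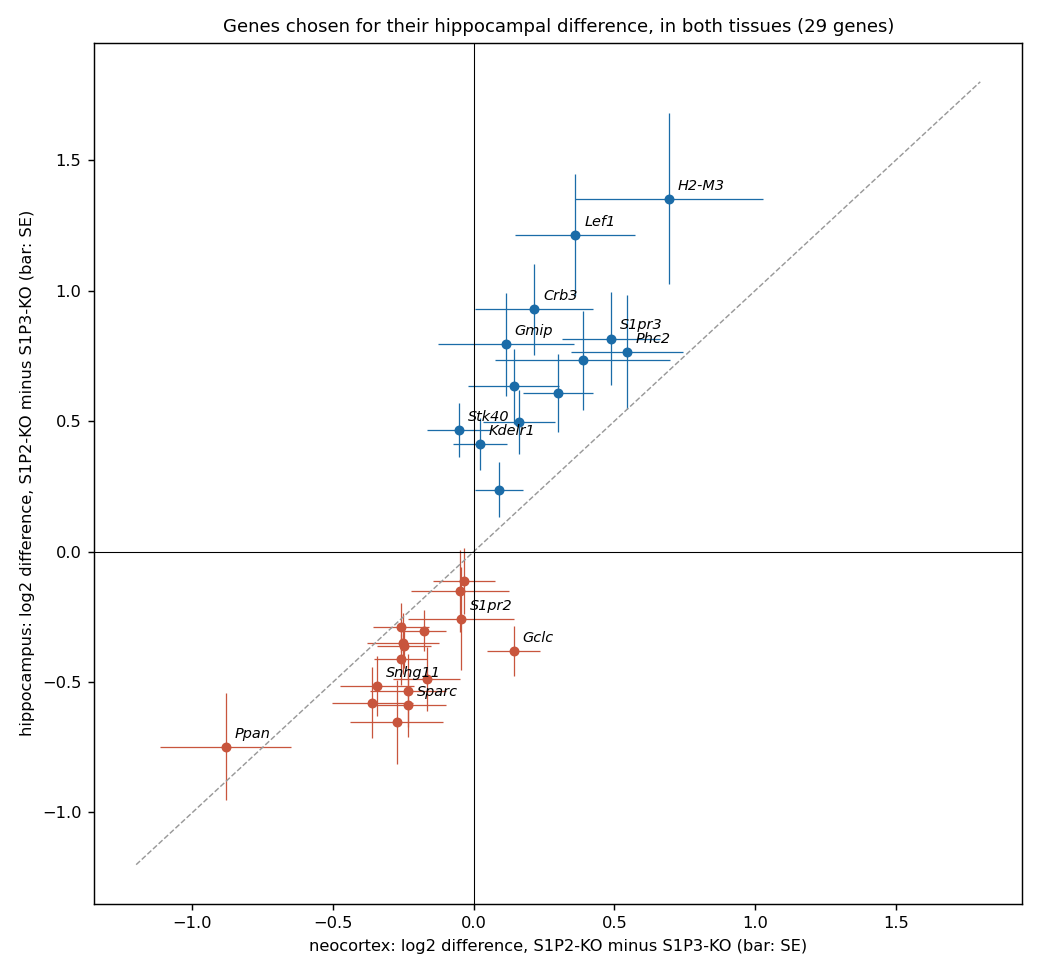
Log2 difference ± SE, S1P2-KO minus S1P3-KO, in hippocampus (vertical) against neocortex (horizontal) for 29 genes, which are S1pr2, S1pr3 and those chosen for their hippocampal p, with a dashed line of equal difference. Most points lie on the same side of 0 in both tissues and closer to 0 in neocortex, Ppan lies near the line at -0.88 and -0.75, and Gclc lies on opposite sides.

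Males and females were compared through the interaction of genotype and sex. With replicate 5, a female, 2 of 8534 probe sets passed the threshold (0.0234%) and 948 lay under an unadjusted p of 0.05 (11.1%). One was Zfp362, a zinc finger gene, where S1P2-KO minus S1P3-KO was -0.98 ± 0.18 in males and 0.39 ± 0.16 in females, a difference of -1.38 ± 0.24 (limma adjusted p = 0.0237). Its S1P3-KO signals were 1058 and 1298 on the 2 male arrays, 564 and 640 on the other 2 female arrays and 561 on replicate 5. The other probe set is unnamed here, and its difference between sexes was 1.56. Without replicate 5 there were 0 calls, and Zfp362 differed between sexes by -1.34 (limma adjusted p = 0.0898). S1pr3 was higher in S1P2-KO in both sexes, by 0.65 in males and 0.95 in females, and S1pr2 differed by -0.59 in males and 0.00 in females, which was not a called difference (limma adjusted p = 0.590).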

How the data were processed

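From 12 µg of TRIzol-extracted RNA biotinylated cRNA was made, per the labels' protocols. The authors deposited a linear intensity of each of 12488 probe sets for every array. These intensities are MAS5 signals, per the submitters' processing notes, and the software version is not given in the sources used here. MAS5 scales whole arrays, and since 2% trimmed means ran from 1000.56 to 1000.66, no further scaling was done. Precision is limited by how many arrays there are, and p-values measure the spread between them.

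From the deposited intensities log2(signal + 30.7) was computed, with 30.7 the 10th percentile of all signals, which understates differences of dim genes. The 8534 probe sets (6350 genes) whose mean over 50 arrays lay above the pooled 30th percentile were tested, with 66 control probe sets left out. Gene names came from the platform's annotation table: 10855 had 1 symbol, 396 several and 1237 none here. A gene stands by its brightest probe set. Other probe sets are given only for Ndrg1, Camk2a, Gfap and Nfkbia, although further named genes, such as Psap with 3, had more than 1. Crb3, Lef1, H2-M3 and Vdac2 had 2 each, of which only the brighter passed the filter. The models used limma 3.58.1 (R 4.3.3, with a mean trend in eBayes), with Benjamini-Hochberg adjustment and a threshold of 0.05, over the 3 genotypes with sex. All adjusted p-values are limma's. The procedure was tested on simulated data. The interaction with neocortex used 50 arrays with sex within tissue. Single values per array had a two-sided exact permutation test.

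Groups, sexes and replicate numbers came from the titles, since the design text gives group sizes in another order. Eif2s3y, on the Y chromosome, was at least 421.9 on male arrays and at most 128.2 on female arrays, so 0 of 50 arrays went against their sex label, and 0 pairs of arrays were identical. Named genes are S1pr2 and S1pr3, the 10 of smallest p in each direction with and without replicate 5, and the 2 members of smallest p of each gene list, and exceptions are marked. The members and the gene lists were chosen with earlier results of these data known, so list counts are descriptions. Alternatives were the scaling, pseudocount, filter, covariates, array weights, groups in the fit, a block for replicate number and each array left out. Promoters came from the RefSeq table of GRCm38.p6. A gene list of signalling proteins is not reported here.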

Additional observations from a re-analysis of the deposited data

Results flagged for a closer look

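In 61 groups of arrays (the control ratio and the leading genes, by genotype) the highest or lowest array was tested for distance from the others, and 10 stood apart by Dixon's criterion. Chance flags about 5% of groups picked without regard to their values. The leading genes were picked by p on these arrays, with and without replicate 5, so this share does not apply to them. Of the 10, 3 concern the mean log2 3' to 5' control ratio, with 4.46 on S1P3-KO replicate 5 (next highest 0.52), 1.37 on S1P2-KO replicate 7 (next 0.52) and 1.198 on wild-type replicate 4 (next 0.75). Another 4 concern the signal of a gene on S1P3-KO replicate 5. Cox7b, a respiratory chain gene, was highest there at 9161, against 5315 on the next array. Ppan (143.9, next 306.2), Lmo1 (1045, next 2306) and Guk1 (1977, next 3727) were lowest there. Without that array these 3 genes differed between the knockouts by -0.94, -0.40 and -0.31, and with it by -0.75, -0.15 and -0.11.

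The remaining 3 lie on other arrays. Phc2, a Polycomb gene, was 126.1 on S1P3-KO replicate 1, against 487.1 on the next array. Crb3 was 359.4 on S1P2-KO replicate 1, against 627.4 on the next, and without this array Crb3 passed the threshold (limma adjusted p = 0.00805). Wbp1 was 4872 on S1P2-KO replicate 10, against 4332 on the next.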

How the results depend on the processing

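The count of called probe sets stayed at 0 under quantile normalization, pseudocounts of 1 and 100, both other filters, no sex covariate, only the 2 knockout groups and without the 3 arrays of high ratio. It was 1 with the control ratio as covariate (Crb3) and 2 with array weights (Lef1 and Crb3). With each of the 25 arrays left out in turn it ran from 0 to 4, and the 10 wild-type left-outs, added after the data were seen, all gave 0. Replicate numbers did not pair the knockouts (correlations of same-numbered deviations from -0.09 to 0.14, 1 of 5 arrays closest to its own number), and the replicate block gave 0 calls, in the tissue comparison too, with 690 probe sets at an unadjusted p under 0.05. That count was 982 in the reported fit, 567 without S1P3-KO replicate 5 and 573 with the control ratio as covariate. Among named genes, 3157 values kept direction and side of the threshold. Direction turned for 12: Crym (0.081), Xist (-0.15) and 4833439L19Rik (0.026) under the replicate block, Eif2s3y (0.14) without the sex covariate, Slc4a1 (-0.13, with leave-one-out values up to 0.52) without S1P3-KO replicate 3, S1pr2 (0.00069), Guk1 (0.059), Sphk2 (0.016) and Eif2s3y (0.040) in females only, and Mog (0.060), Crym (0.13) and 4833439L19Rik (0.023) in males only. The cause was not tested. With MAS5 signals and 5 S1P3-KO arrays, some genes with signals below the pseudocount on part of the arrays had wide errors. Examples are Slc4a1 (16.0 at the lowest in S1P3-KO, SE 0.38) and Xist (17.9, SE 0.55).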
